A study of Homo sapiens with 6 samples.

Results

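JUN, JUNB, JUND, FOS, MYC, EGR1, IER2, KLF10, BTG2 and MCL1 encode short-lived mRNAs of growth control, most of them immediate-early genes, and the peaks of N6-methyladenosine (m6A) on their transcripts are described here. A peak belonged to a gene where its centre lay on the gene's strand inside a fixed hg19 window, and 14 of the 25737 peak regions in the data were found in the 10 windows this way. A region is a set of peaks from the 3 lists that share at least 1 bp on a strand. All samples were wild-type HEK293T cells, an established line from human embryonic kidney that expresses SV40 large T antigen, with no treatment, serum step or time point named in the labels. RNA fragments bound by an m6A antibody (IP) were sequenced beside unselected RNA (Input) in 3 repeats named MeRIP 1, MeRIP 2 and MeRIP 3, and each repeat has 1 deposited peak list. The study is about METTL16, an m6A writer, and SF3B4, a splicing factor described as a reader of its RNAs, and the labels name no change to either protein in these samples. Separate cultures are not stated, so a spread between lists may be technical.

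Immediate-early genes are switched on within minutes of a growth signal without new protein synthesis, and their mRNAs are then removed fast, which keeps the response brief. m6A is one of the marks linked to rapid mRNA decay: the reader YTHDF2 binds it and recruits the CCR4-NOT deadenylase, which shortens the poly(A) tail. The mark is known to be densest in long exons and around the stop codon, and sparse near exon junctions. Several immediate-early genes have no intron or very few, so most of their mRNA lies in 1 long exon.

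The core of the m6A consensus is GGAC, whose A can be methylated. The RNA sequence under the peaks was not analysed here, because no hg19 sequence was at hand, but the first 50 transcribed bases of 7 members were in the RefSeq start-site table of GRCh38.p14. MYC, KLF10 and MCL1 were not matched. GGAC, searched on the transcribed strand alone, occurred in 2 of the 7, JUNB and BTG2, against 18.9% of the 35116 genes of the table. Both are shown because they hold the motif; the JUNB peak begins 10 bp into its window and the BTG2 peak 1572 bp into its own. The stretches lie at chr19:12791486-12791515 and chr1:203305539-203305568, both on the plus strand in GRCh38.p14, and capitals mark GGAC.
JUNB: gGGACcttgagagcggccaggccagcctcg
BTG2: ggtaacgctgtcttgtGGACccgcacttcc
A match describes these letters and does not mark a methylated site, and the start sites of this build were not set against the hg19 windows.

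All 10 genes had at least 1 peak in every list, though the MCL1 peaks shared no base over the 3 lists. The same share over all genes was not counted, because it needs an hg19 annotation. MeRIP 1 held 12 peaks in the windows, MeRIP 2 held 12 and MeRIP 3 held 13, a mean of 12.3 ± 0.577 (SD, n = 3 lists). Merged over the lists, 7 genes had 1 region, MYC and MCL1 had 2 each and KLF10 had 3. Of the 14 regions, 11 had a peak in all 3 lists (78.6%), against 59.3% of all regions in the data. Only 1 had a peak in 2 lists, against 17.9% of all, and 2 had a peak in 1 list, against 22.8%. The regions were also wide, from 252 to 3323 bp with a median of 1667.5 bp, against 364 bp for all regions. Of the 14, 11 were 1000 bp or wider (78.6%), as were 23.2% of all regions. Among regions of that width 10 of the 11 were in all 3 lists, and 81.5% of such regions in the whole data were. The share in all 3 lists thus lay near that of equally wide regions. These are descriptions of a chosen list, with no test.

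**Figure D1:**
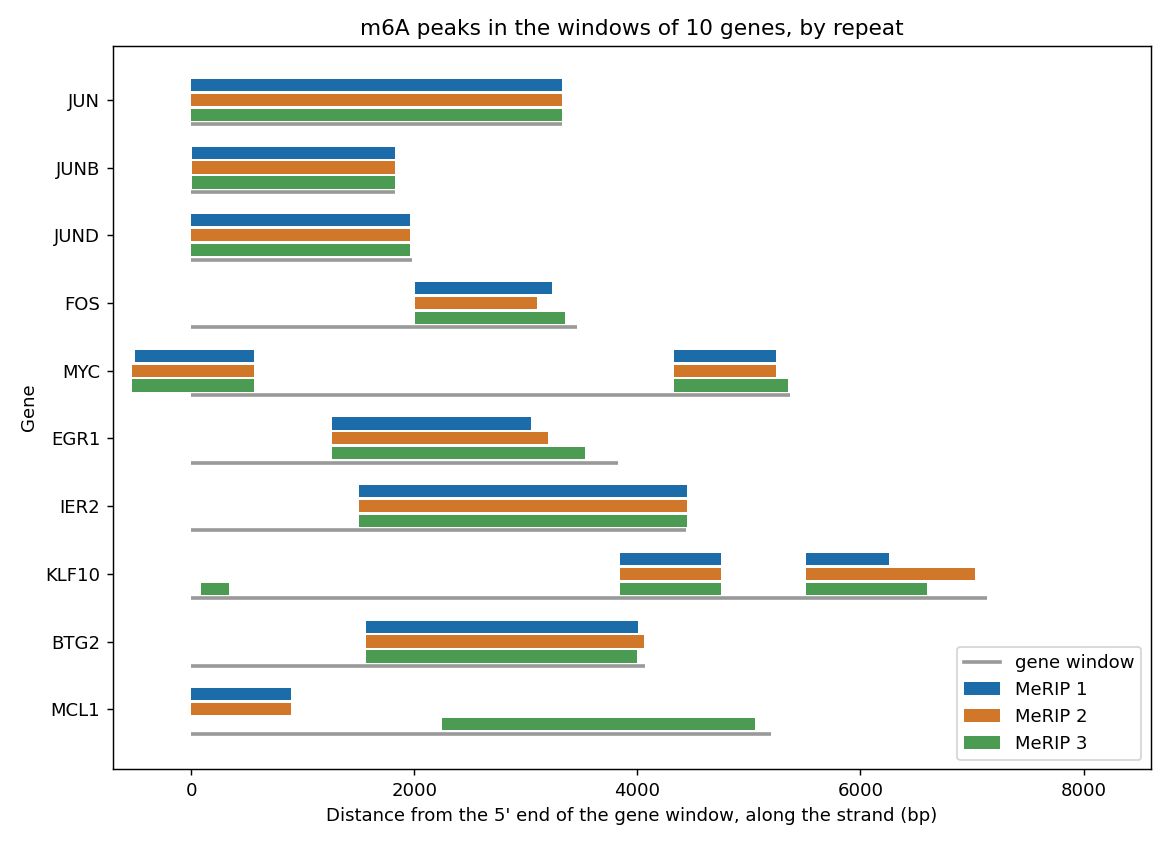
Peaks in each gene window, with the distance in bp from the 5' end of the window along the strand on the x axis and the genes on the y axis; coloured bars are the peaks of MeRIP 1, 2 and 3 and the grey line is the window. JUN, JUNB and JUND are covered almost from end to end in each repeat. Peaks of FOS, EGR1, IER2 and BTG2 leave the upstream part free, and those of FOS and EGR1 end 106 to 775 bp before the window end. The MCL1 peak of MeRIP 3 lies apart from that of MeRIP 1 and MeRIP 2.

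Each peak carries the authors' score, which starts at 50. Many peaks share a score of 3100, called the ceiling here, and few lie above it; scores above it were set to it for regions. Its form is that of a p-value on a log scale, which no header states. A score of that form can also depend on the amount of a transcript and the width of a peak. These lists do not separate either from methylation, and RNA levels were not analysed here. Of the 14 regions, 6 were at the ceiling in all 3 lists (42.9%), against 11.2% of all regions. Among regions of 1000 bp or more, 6 of 11 were at the ceiling in all 3 lists, against 29.5% in the whole data. The 6 were JUN, JUNB, JUND, both MYC regions and IER2. A score of 3100 was above that of 81.8 to 82.5% of a list's peaks, so scores at the ceiling cannot be ordered among themselves.

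**Figure D2:**
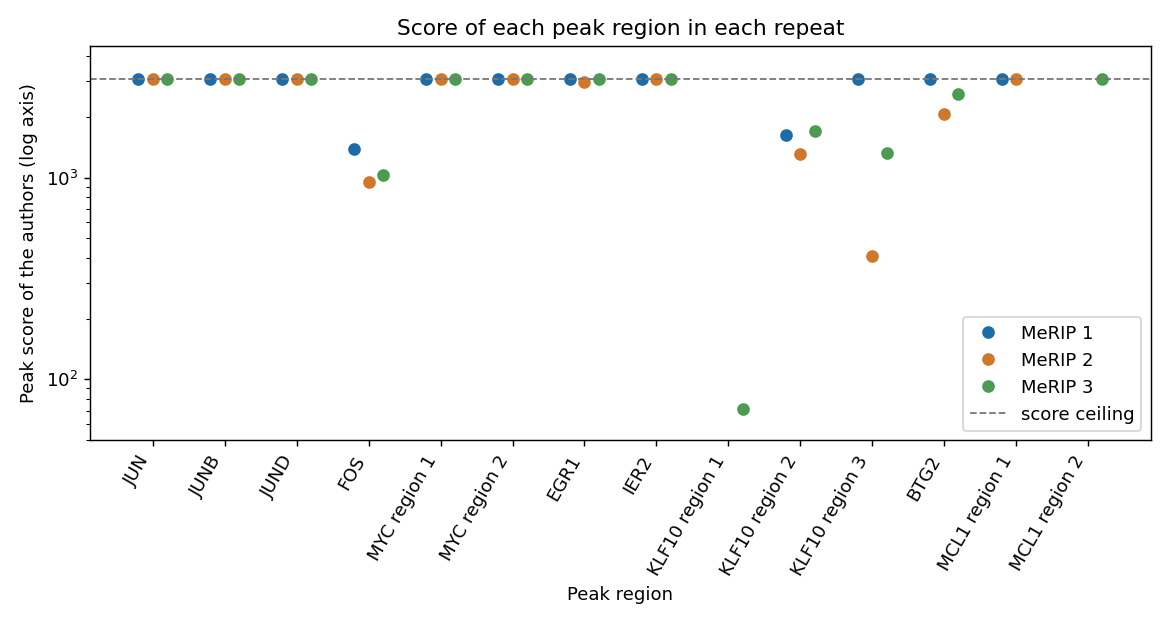
Score of each region in each repeat, on a log axis, with 1 point per list and the ceiling of 3100 as a dashed line; a missing point is a list without a peak there. Most points sit on the ceiling, FOS lies between 948 and 1387, and KLF10 region 3 spreads from 409 to 3100.

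Among the AP-1 genes, the 3 JUN genes were covered almost whole and FOS in part. AP-1 is the dimer of a JUN and a FOS protein that binds DNA through a basic leucine zipper. JUN, its founding subunit and the target of the JNK kinases, had 1 peak of 3323 bp in each list, on the minus strand at chr1:59246463-59249785. The peak scored 3100 in MeRIP 1, MeRIP 2 and MeRIP 3 and covered 99.9% of the window in each. JUN was the widest region of the 10 genes, and its edges were the same to the base in every list.

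JUNB, a JUN paralogue that often restrains growth, had a peak of 1816 bp in each list at chr19:12902310-12904125 on the plus strand. JUND, the paralogue present at steadier levels in resting cells, had one of 1963 bp at chr19:18390504-18392466 on the minus strand. Both scored 3100 in all 3 lists with identical edges. The peaks covered 99.5% of the JUNB window and 99.3% of the JUND window. In every list the JUN and JUND peaks began at the first base of the window, and the JUNB peak ended at its last base. The 3 JUN genes have no intron, and in each of them the peak nearly filled the window. Its edges therefore do not place the mark within the transcript.

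FOS, the partner of the JUN proteins and the best known serum-induced gene, differed in both respects. Its peak scored 1387, 948 and 1030 in MeRIP 1, 2 and 3. These were the lowest of the 10 genes' highest scores in each list, and none reached the ceiling. They were still above the scores of 71.0%, 65.3% and 65.5% of the peaks of their lists. The peak began 2006 bp from the 5' end of the window in every list, at chr14:75747486 on the plus strand. It ended at 75748717 in MeRIP 1, 75748580 in MeRIP 2 and 75748831 in MeRIP 3, a spread of 251 bp. It covered 35.6%, 31.7% and 38.9% of the window, so the upstream part of the FOS window carried no listed peak in any repeat. Exons were not located here, so how much of that part is in the mature mRNA was not determined.

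MYC, a basic helix-loop-helix zipper protein that dimerises with MAX and drives ribosome and cell-cycle genes, had 2 peaks in each list, and all 6 peaks scored 3100. The upstream region lay on chromosome 8 and ended at 128748869 in every list. Its start was at 128747809, 128747778 and 128747777 in MeRIP 1, 2 and 3. The peaks therefore began 501, 532 and 533 bp before the window. Their centres lay 29, 13.5 and 13 bp inside its edge, the closest of any peak here to the limit of the rule. No peak lay just outside a window: the nearest other peak on the same strand was 9319 bp away from IER2, and farther for the other 9 genes.

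The downstream MYC region began at 128752642 in every list, 4332 bp into the window. It ended at 128753550, 128753554 and 128753661 in MeRIP 1, 2 and 3. Peak numbers given by the caller follow chromosome position in all 3 lists, with 0 exceptions among the listed peaks. In each list both MYC peaks had consecutive numbers, with 0 numbers missing in between. The 3772 bp from the end of the upstream to the start of the downstream region therefore held no other numbered peak in any repeat, if peaks that are not listed were numbered by position too. Peaks covered 27.4%, 27.4% and 29.4% of the MYC window.

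EGR1, a zinc finger factor induced by serum and growth factors, had 1 peak per list. It scored 3100 in MeRIP 1 and MeRIP 3, and 2978 in MeRIP 2. It began at chr5:137802446 on the plus strand in every list, 1266 bp into the window. It ended at 137804229, 137804380 and 137804708, so the widths were 1784, 1935 and 2263 bp. The peak covered 52.1 ± 6.40% of the window (SD, n = 3 lists). In every list 0 peak numbers were missing before it, back to a listed peak 18522 bp before the window. The first part of EGR1 thus held no other numbered peak, if unlisted peaks were numbered by position too.

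IER2, a small nuclear protein of the immediate-early response, had a peak of 2934 bp at chr19:13262789-13265722 on the plus strand. It scored 3100 with identical edges in each list, covered 66.0% of the window and ran 4 bp past its end. Apart from the JUN genes, it was the only gene of the 10 with the same cover in all 3 lists.

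KLF10, a zinc finger repressor induced early by TGF-beta, had the widest spread of scores among regions in all 3 lists. Its middle region, at 103663377 to 103664289 on the minus strand of chromosome 8, had identical edges and a width of 913 bp in each list. The scores there were 1627, 1317 and 1696, and the highest was 1.29 times the lowest. The downstream region began 5511 bp into the window in each list, and scored 3100, 409 and 1330 in MeRIP 1, 2 and 3. Highest over lowest was 7.57 there, with the score of MeRIP 1 at the ceiling. Of the 15265 regions in 3 lists, 2.57% reached or passed that spread. The region was picked as the widest spread of the 11 after the values were seen, so this share does not measure how rare it is. The 15265 also include 2888 regions at the ceiling in all 3 lists, whose ratio is fixed at 1.

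Width in this downstream KLF10 region ran opposite to score: 745 bp in MeRIP 1, 1519 bp in MeRIP 2 and 1090 bp in MeRIP 3. The peak of MeRIP 2, the widest and weakest, was at the 49.4% rank of its list, against 82.1% and 69.7% for the other two. One more region, of 252 bp near the 5' end of the window, was listed in MeRIP 3 alone with a score of 70.98. It had the lowest score of the 37 member peaks, near the lowest score of 50 in the lists. KLF10 was thus listed in every repeat. The extent of its downstream region differed between repeats while that of the middle region did not, and scores differed in both.

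BTG2, an antiproliferative protein that binds the CCR4-NOT deadenylase and so takes part in mRNA decay itself, scored 3199.9, 2078 and 2610 in MeRIP 1, 2 and 3. The score of MeRIP 1 lay above the ceiling value, higher than 99.9% of that list's peaks, and only MeRIP 1 reached the ceiling. The peak began at chr1:203276232 on the plus strand in every list, 1572 bp into the window. It ended at 203278669, 203278719 and 203278657, within 62 bp, and covered 60.2 ± 0.808% of the window (SD, n = 3 lists). MeRIP 2 had the lowest score in each of the 5 regions of these genes that were in all 3 lists and not all at the ceiling: FOS, EGR1, the middle and downstream KLF10 regions and BTG2. MeRIP 2 was the lowest in 39.4% of the 12377 such regions in the whole data. This pattern was picked out after the values were seen.

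MCL1, an anti-apoptotic BCL2-family protein with a very short half-life, had a peak in every list but no base covered in all 3. MeRIP 1 and MeRIP 2 both held a peak of 896 bp at chr1:150551319-150552214 on the minus strand, at the 5' end of the window. MeRIP 3 held none there and instead a peak of 2807 bp at chr1:150547161-150549967, in the downstream part. All of these peaks scored 3100. The gap between the 2 regions was 1351 bp. Of all regions in MeRIP 1 and MeRIP 2 but not MeRIP 3, 3.03% were at the ceiling in both, and of those in MeRIP 3 alone 2.59% were at the ceiling. The cover was 17.2% in MeRIP 1, 17.2% in MeRIP 2 and 54.0% in MeRIP 3, or 29.5 ± 21.2% (SD, n = 3 lists), the widest spread of the 10 genes.

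Peak numbers bear on this difference between the lists. In MeRIP 1 the MCL1 peak is number 5514, and number 5513 lies 13051 bp before the window in position. The downstream part of MCL1 is on that side. It thus held no other numbered peak in MeRIP 1, if unlisted peaks were numbered by position too. In MeRIP 2, 8 numbers are missing between the previous listed peak and that of MCL1. In MeRIP 3, 4 numbers are missing between the MCL1 peak and the next listed one. A downstream peak in MeRIP 2 or an upstream peak in MeRIP 3 may therefore have been called and left out of the list, which the files do not show.

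**Figure D3:**
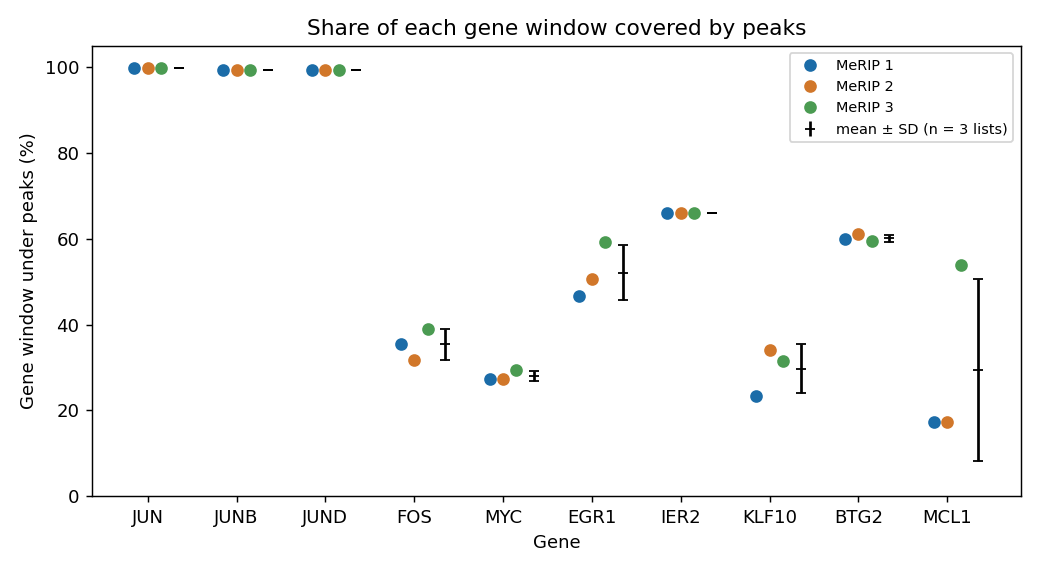
Share of each gene window under peaks, in percent, with 1 point per list and the mean ± SD over the 3 lists in black. The JUN genes lie at 99.3% or above in every list, IER2 at 66.0%, and MCL1 moves from 17.2% in MeRIP 1 and MeRIP 2 to 54.0% in MeRIP 3.

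In order of mean cover the genes were JUN, JUNB, JUND, IER2, BTG2, EGR1, FOS, KLF10, MCL1 and MYC. Mean cover was 35.4 ± 3.63% for FOS, 29.7 ± 5.69% for KLF10, 29.5 ± 21.2% for MCL1 and 28.1 ± 1.17% for MYC. Among these 4 genes, the values of neighbours in the order overlapped, and their order is not settled. FOS lay below EGR1 in every list, at most 38.9% against at least 46.6%. MCL1 in MeRIP 3 lay above EGR1 in MeRIP 1 and MeRIP 2, so the place of MCL1 against EGR1 is not settled either. The windows span introns where a gene has them, so a low cover partly counts bases that are not in the mature mRNA, and exons were not located here.

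The edges fell into few kinds, and whether shared edges lie at gene or exon limits was not tested. Of the 11 regions in all 3 lists, 5 had both edges identical to the base (45.5%): JUN, JUNB, JUND, IER2 and the middle KLF10 region. Over all regions with 1 peak in each list 72.7% did, and 41.3% of those of 1000 bp or more. Another 5 shared the upstream edge alone (45.5%), against 20.4% of all and 48.3% of the wide ones: FOS, the downstream MYC and KLF10 regions, EGR1 and BTG2. Their downstream edges lay up to 62 to 774 bp apart. The upstream MYC region was the only one to share the downstream edge alone, as 4.7% of all regions with 1 peak in each list did, with starts within 32 bp. The shares with both edges and with the upstream edge alone identical were thus close to those of regions of 1000 bp or more. The sets are not quite alike, because the middle KLF10 region, with both edges identical, is 913 bp wide.

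**Figure D4:**
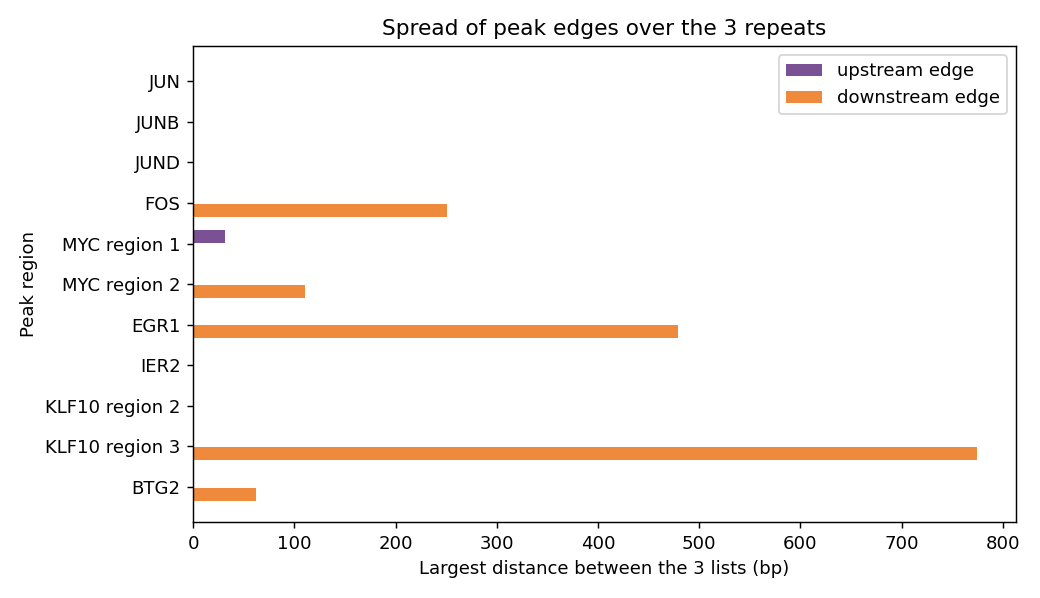
Largest distance in bp between the 3 lists at the upstream and the downstream edge of each of the 11 regions found in all 3 lists; no bar means the same base in each list. Downstream edges differ by 62 to 774 bp in 5 regions, and the upstream edge differs only in MYC region 1, by 32 bp.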

How the data were processed

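The MeRIP-seq repeats of HEK293T cells (3 in all), each an IP and an Input library sequenced as 150 bp paired-end reads after rRNA removal per the labels' protocols, gave 3 lists of 21286, 19851 and 20010 peaks. The tools named in the submitters' processing notes are cutadapt 1.9.3 and HISAT2 2.0.4, with hg19 as the build. The score of each peak was deposited by the authors; peak names contain MACS, with settings and listing rule not given in the sources used here, and the depth of the libraries is unknown. Scores above 3100 were set to 3100 for regions, positions count from 1, and regions needed an overlap of at least 1 bp. All 10 genes of the list are named. No test across groups applies to 1 condition, so values are descriptions beside those of all regions. The members, windows and comparisons were chosen with earlier results of these data known. Merging was tested on simulated data. Other immediate-early genes, which need an hg19 annotation, were not analysed here. Gene roles are background knowledge. Python 3.11.15, NumPy 2.4.6, pandas 2.3.3 and Matplotlib 3.10.9 were used.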

Additional observations from a re-analysis of the deposited data

How the results depend on the processing

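No paired analysis was possible because IP and Input enter a list together and no test was made. Counts of genes, regions, ceiling regions, peaks and identical edges stayed within 1.5 times their values with any overlap with the window, strand ignored, a score of at least 200 or at the list's median, windows widened by 1000 bp, and each repeat left out. The nearest other peak on either strand was 5052 bp from a window. Any overlap, ignoring strand and widening could therefore add no peak, and their unchanged counts say nothing on robustness. Leaving a repeat out asks for fewer lists, so counts of what all lists share could hardly fall. A 50% reciprocal overlap was run for regions in all lists alone, and scores of at least 1000 for ceiling regions alone, and both stayed within 1.5 times. Regions in all lists numbered 10 with the reciprocal overlap and 10 with the median score, and 11 to 12 without 1 repeat. Ceiling regions numbered 6 to 7 without 1 repeat, and 9 regions scored at least 1000. The median share of a window under peaks was 56.2%, 54.6 to 57.6% without 1 repeat, and 37.3% with widened windows, which add bases without peaks. Depth is unknown, so an RNA with no listed peak may still be methylated.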

Other observations

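The MCL1 regions were not the only nearby regions listed in different repeats. Regions outside the windows were not assigned to genes, so a pair may join regions of different genes. Over all lists, 404 pairs of regions within 5000 bp of one another on a strand had one region with peaks in 2 lists and the other with a peak in the remaining list alone. In 13 of these pairs every peak was at the score ceiling, and MCL1 was 1 of the 13. The total of nearby pairs was not counted, so these numbers have no share beside them. Of all regions, 17.9% had peaks in exactly 2 lists and 22.8% in 1 list alone. This count of pairs was made after the MCL1 peaks were seen, and the cause was not tested.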
